A study of Rattus norvegicus with 15 samples.

Results

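The genes described here belong to the TGF-beta and activin pathway. They are Pmepa1 and Fst (follistatin), which both restrain the pathway, the ligand genes Inhba, Tgfb1 and Tgfb2, and the receptor genes Acvr1, Acvr2a, Acvr2b, Tgfbr1 and Tgfbr3. They were chosen by gene symbol, and 10 of 10 were represented on the array among 4736 genes with a single symbol, by 15 probe sets in all. Each probe set reads out a transcript through several short oligonucleotides. Neurons had been laser-captured from the substantia nigra pars compacta (SNc, 8 arrays, numbered 1 to 8) and the ventral tegmental area (VTA, 7 arrays, numbered 1 to 6 and 8) of rat midbrain, and total RNA was measured on an expression array. These are neighbouring regions that hold dopamine neurons, and SNc neurons are the more heavily lost in Parkinson's disease, for which the series is titled. The labels name no genotype, strain, treatment, age or sex for either region, and do not say how neurons were recognised or how many animals or captures an array stands for. The spread between arrays may therefore be partly technical.

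In this pathway, dimeric ligands bind a type II receptor, which activates a type I receptor, and the type I receptor phosphorylates SMAD proteins that enter the nucleus. Activins are dimers of inhibin beta subunits such as the product of Inhba, and follistatin binds them in the extracellular space with very high affinity. Pmepa1 is induced by TGF-beta and acts as negative feedback, by keeping SMADs from the receptor. TGF-beta ligands are known to support the development and survival of midbrain dopamine neurons.

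Signals are the deposited linear intensities. A positive difference means higher in SNc, and differences are taken after log2(signal + 16), with the standard error (SE) of a limma fit over all tested probe sets. The dimmest 40% by mean on that scale, below a signal of about 26.3, were not tested. The genes were proposed with the contrast between regions in view, so that contrast is given for them as a description, without p-values. Of the 15 probe sets, 9 were above that level, for 6 genes. The other 6 were below it, and Acvr1, Acvr2a, Tgfb1 and Tgfbr1 had no probe set above it. For these 6 the SE is that of a second limma fit, over all 8740 probe sets without controls and without the filter. Signals of different probe sets cannot be compared with each other, so levels are compared only between arrays of the same probe set.

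Several markers of dopamine neurons were strong in both regions, and glial RNA was present in both as well. Of the dopamine markers, 9 were on the array, and all 9 were above the filter level. Their summed log2 levels differed by -0.177, with p = 0.731 when the arrays were permuted exactly. Tyrosine hydroxylase (Th) had a signal of 6615 ± 527.2 (SD, n = 8) in SNc and 7193 ± 769.7 (SD, n = 7) in VTA. Nr4a2 and Pitx3 were also higher in VTA by mean, while Slc6a3, Ddc, Slc18a2, Aldh1a1, Ret and Drd2 were higher in SNc. Slc6a3 gave 7245 in SNc and 5782 in VTA, and Pitx3, the dimmest, 129.6 and 154.4. The oligodendrocyte gene Mbp had 3784 ± 898.6 and 4838 ± 983.4. Summed over the 7 oligodendrocyte markers on the array, the signal ran from 6046 to 10070 in SNc and from 8306 to 12540 in VTA. Of 8 microglia and macrophage markers, 3 were above the filter level, and Itgam and Cd74 lay at 7.505 and 8.608 in SNc. The ratio of 3' to 5' signal of the actin control ran from 6.14 to 15.4 over the arrays, so 3' signal exceeded 5' signal on each of them. That of the GAPDH control ran from 2.94 on VTA 4 to 6.82 on VTA 8, with VTA 5 next highest at 5.66. Median signal per array ran from 38.0 to 45.3 in SNc and from 42.3 to 46.8 in VTA. Its mean was 41.35 in SNc and 45.1 in VTA, a difference of -3.75. By exact permutation p was 0.016, or 0.08 after adjustment over all array measures, which include the marker sums and control ratios. The shift towards VTA therefore did not pass the threshold of 0.05, and its cause was not tested.

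Pmepa1 was strongly expressed in SNc and clearly lower in VTA. Its probe set (rc_AI639058_s_at) gave 1993 on the lowest SNc array, a median of 2744 and 3400 on the highest. In VTA it gave 536.1 on the lowest array, a median of 739.9 and 975.4 on the highest. Every SNc array was therefore above every VTA array, and the lowest SNc value, 1993, was well clear of the highest VTA value, 975.4. The means were 2714 ± 538.5 (SD, n = 8) and 764.5 ± 172.8 (SD, n = 7), a log2 difference of 1.81 (SE 0.17) or 3.51-fold. Leaving out any single array kept it between 1.73 and 1.88. Within regions, the coefficient of variation was 19.8% in SNc and 22.6% in VTA. The SNc arrays were not evenly spread. Arrays 1, 3, 4 and 8 gave 3099, 3125, 3166 and 3400, while arrays 2, 5, 6 and 7 gave 2365, 2175, 2388 and 1993. In captured tissue, fewer cells that express a gene and less RNA per cell cannot be told apart.

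Fst went the other way, with a signal in VTA and almost none in SNc. Its brighter probe set (rc_AA858520_g_at) gave 6.13 on the lowest SNc array, a median of 10.06 and 17.39 on the highest. All 8 SNc arrays lay under the filter level of 26.3. In VTA the same probe set gave 32.0 on the lowest array, a median of 106.8 and 185.9 on the highest. Again no SNc array reached any VTA array. The means were 10.78 ± 4.281 (SD, n = 8) and 110.4 ± 49.44 (SD, n = 7), a log2 difference of -2.14 (SE 0.23). The size of this difference depends on how the low SNc signals are treated. It was -3.16 with an offset of 1 and -1.17 with an offset of 64, and the ratio of the mean signals was 10.2.

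The VTA arrays differed more in Fst than in Pmepa1. The coefficient of variation of Fst in VTA was 44.8%, against 22.6% for Pmepa1. A value of this size was not particular to Fst among probe sets dimmer than that of Pmepa1. It was 42.8% for Inhba and 53.8% for the dimmer probe set of Acvr2b, but 16.1% for Tgfb2. For Fst, VTA 4 was the lowest array, at 32.0 by the brighter probe set and 12.27 by the other (rc_AA858520_at). The second value was close to the SNc range of 7.222 to 10.65. The other 6 VTA arrays lay between 62.03 and 224.2 by that second probe set. VTA 5 was the highest by both. The probe sets bear the number of a single expressed sequence tag, so they are no independent measurements of the gene. They moved together over the VTA arrays (Pearson's r = 0.96, n = 7), and not over the SNc arrays (r = 0.12, n = 8), where both signals were low. Without VTA 4 the VTA mean of the brighter probe set was 123.4 ± 38.73 (SD, n = 6) and the log2 difference -2.35.

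**Figure D1:**
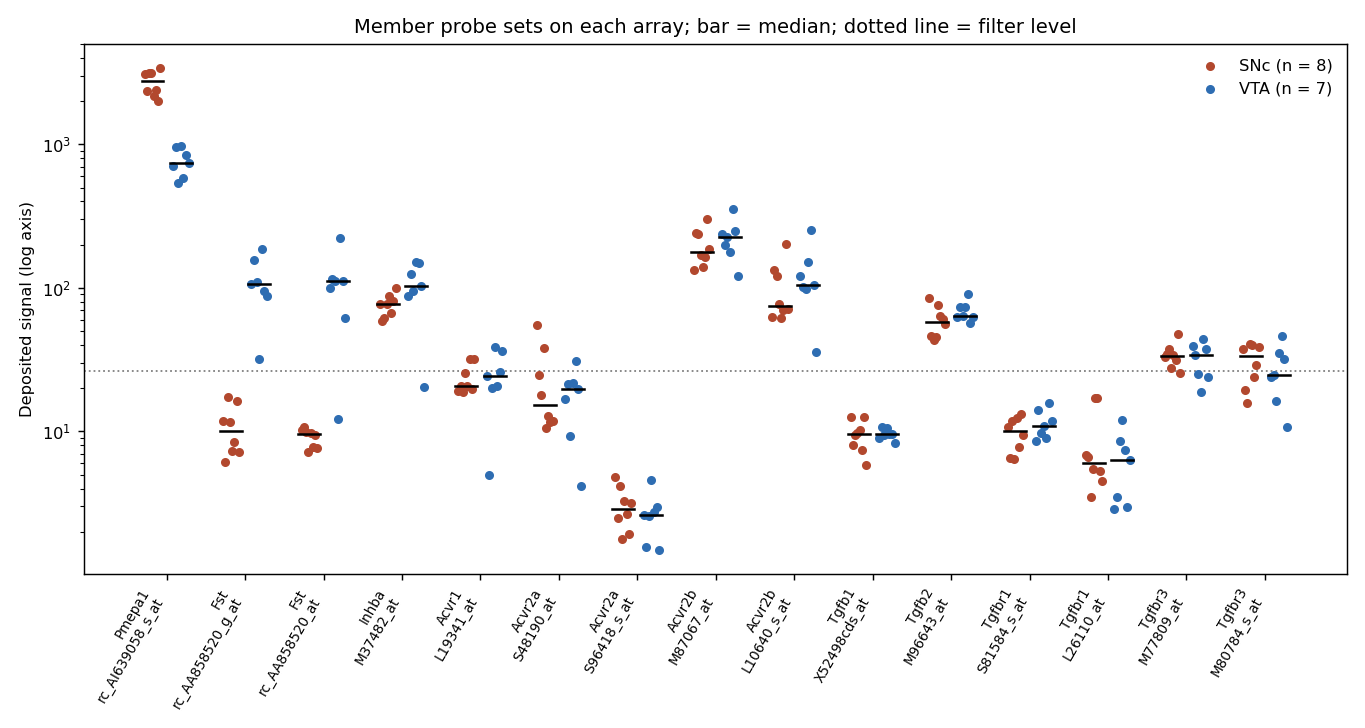
Deposited signal (log axis) of the 15 probe sets on each SNc array (n = 8) and each VTA array (n = 7), with the median as a bar and the filter level of 26.3 as a dotted line. Pmepa1 lay between 1993 and 3400 in SNc and between 536.1 and 975.4 in VTA, Fst was under the line on all SNc arrays, and the other probe sets overlapped between regions.

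Among the 9 probe sets above the filter level, 3 passed an adjusted p of 0.05 in the limma fit over 5244 probe sets, in which 1.98% passed. For Pmepa1 the call was towards SNc, a direction in which 0.839% of all passed. For both Fst probe sets it was towards VTA, in which 1.14% passed. Both were above the filter level only through their VTA signals, as their highest SNc signals were 17.39 and 10.65. The same 3 were those whose regions did not overlap, as was found for 0.858% of all tested probe sets (0.42% with SNc above VTA, 0.439% with VTA above SNc). Since this contrast led to the choice of Pmepa1 and Fst, these calls are no independent test of them and nothing is read from the counts. GABA neuron markers summed to a higher level in SNc, the direction of Pmepa1, without passing the adjusted threshold. The log2 levels of the 5 markers on the array summed to 36.96 ± 1.285 in SNc and 33.99 ± 1.942 in VTA. By an exact two-sided permutation test p was 0.00606, or 0.0606 adjusted over 10 array measures, with adjusted p = 0.0272 after quantile normalization and 0.0141 after median centring. Their summed signal ran from 924.8 to 1859 in SNc and from 560.4 to 1122 in VTA, and 2 of the 5, Gad1 and Pvalb, passed the limma threshold. Of the others, Slc32a1 was at 403.2 in SNc and 373.9 in VTA, Gad2 at 62.63 and 47.14, and Sst, which was not tested, at 37.72 and 64.15. Oligodendrocyte markers did not pass either and were higher in VTA, the direction of Fst, with log2 levels summing to 62.9 ± 1.11 in SNc and 64.66 ± 1.722 in VTA. The same exact permutation test gave p = 0.0325 and an adjusted p of 0.108 (0.0609 after quantile normalization and 0.439 after median centring). Of the 7 markers, Sox10 was too dim to be tested and 0 of the 6 tested were called. This direction was not particular to oligodendrocytes. The sums differed by -1.77 for vessel and blood, -0.912 for astrocyte and -0.496 for microglia and macrophage markers, with adjusted p of 0.465, 0.375 and 0.646 by that test. Of the cell type sums, only that of GABA neurons was higher in SNc. The part of any cell type in the differences of Pmepa1 and Fst was not tested.

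The ligand genes overlapped between the regions. Inhba, which encodes the inhibin beta A subunit of activin A, gave 59.2 on the lowest SNc array, a median of 76.9 and 100 on the highest. In VTA it gave 20.51 on the lowest array, a median of 102.5 and 151.8 on the highest. Of the 7 VTA arrays, 4 were above all SNc arrays, but VTA 8 was below all of them. The log2 difference was -0.27 (SE 0.25). It was -0.53 without VTA 8, where the VTA mean was 118.5 ± 27.52 (SD, n = 6), and -0.17 without VTA 4 or without VTA 5.

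Tgfb2, the ligand that most depends on betaglycan for binding its receptors, lay between 43.13 and 85.12 in SNc, with a median of 58.13, and between 57.38 and 89.95 in VTA, with a median of 63.48. The ranges overlapped in part, with 4 of 8 SNc arrays below the lowest VTA array, and the log2 difference was -0.19 (SE 0.14). The spread was wider in SNc, where arrays 1 and 5 were highest at 85.12 and 76.04 and arrays 2, 3 and 4 lowest at 46.55, 43.13 and 45.41. Tgfb1, which in brain is made largely by microglia and vessels, was dim throughout. It ran from 5.821 to 12.68 in SNc and from 8.263 to 10.7 in VTA, so no level of its own can be read from it.

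The receptor genes overlapped as well. Acvr2b is a type II receptor for activins. Its brighter probe set (M87067_at) gave 134.1 on the lowest SNc array, a median of 177.3 and 302.5 on the highest. In VTA it gave 120.3, 224.8 and 352.8. The log2 difference was -0.16 (SE 0.20), and -0.22 (SE 0.29) by the other probe set (L10640_s_at). The probe sets of Acvr2b followed each other within regions, with r = 0.97 over SNc arrays and 0.86 over VTA arrays. Array 7 was the highest in SNc, at 302.5 and 203.0. In VTA, array 5 was the highest, at 352.8 and 252.1, and array 8 the lowest, at 120.3 and 35.59. The arrays of a region thus differed more than the means of the regions.

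Tgfbr3, or betaglycan, a co-receptor that presents TGF-beta and binds inhibin, lay just above the filter level. By its brighter probe set (M77809_at) it ran from 25.7 to 47.49 in SNc and from 18.75 to 43.92 in VTA, with a log2 difference of 0.08 (SE 0.14). The other probe set (M80784_s_at) gave 0.13 (SE 0.19). These probe sets did not follow each other, with r = -0.43 over SNc arrays and 0.44 over VTA arrays, so the array-to-array values of Tgfbr3 are weakly determined.

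Acvr2a, the other type II receptor for activins, had its highest signals on SNc 1 and SNc 4, at 55.27 and 38.04 by S48190_at, while SNc 5, 6, 7 and 8 gave 10.53 to 12.71. In VTA that probe set ran from 4.148 to 30.95. Its second probe set was lower still, at 1.495 to 4.828 over all arrays, and did not show the high values of SNc 1 and SNc 4 to a comparable extent, at 4.828 and 1.778. Acvr1, a type I receptor used by bone morphogenetic proteins and activins, ran from 18.82 to 31.78 in SNc and from 4.992 to 38.94 in VTA. Tgfbr1, the type I receptor for TGF-beta, ran from 3.518 to 17.22 in SNc and from 2.868 to 15.88 in VTA over both probe sets. The log2 differences were 0.16 (SE 0.23) and 0.03 (SE 0.07) for the Acvr2a probe sets and 0.01 (SE 0.17) for Acvr1. For the Tgfbr1 probe sets they were -0.09 (SE 0.09) and 0.11 (SE 0.14). No rise in either region of the size seen for Fst was found, but a difference between levels this low may be missed. The low signals do not show that these genes are absent from the neurons.

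**Figure D2:**
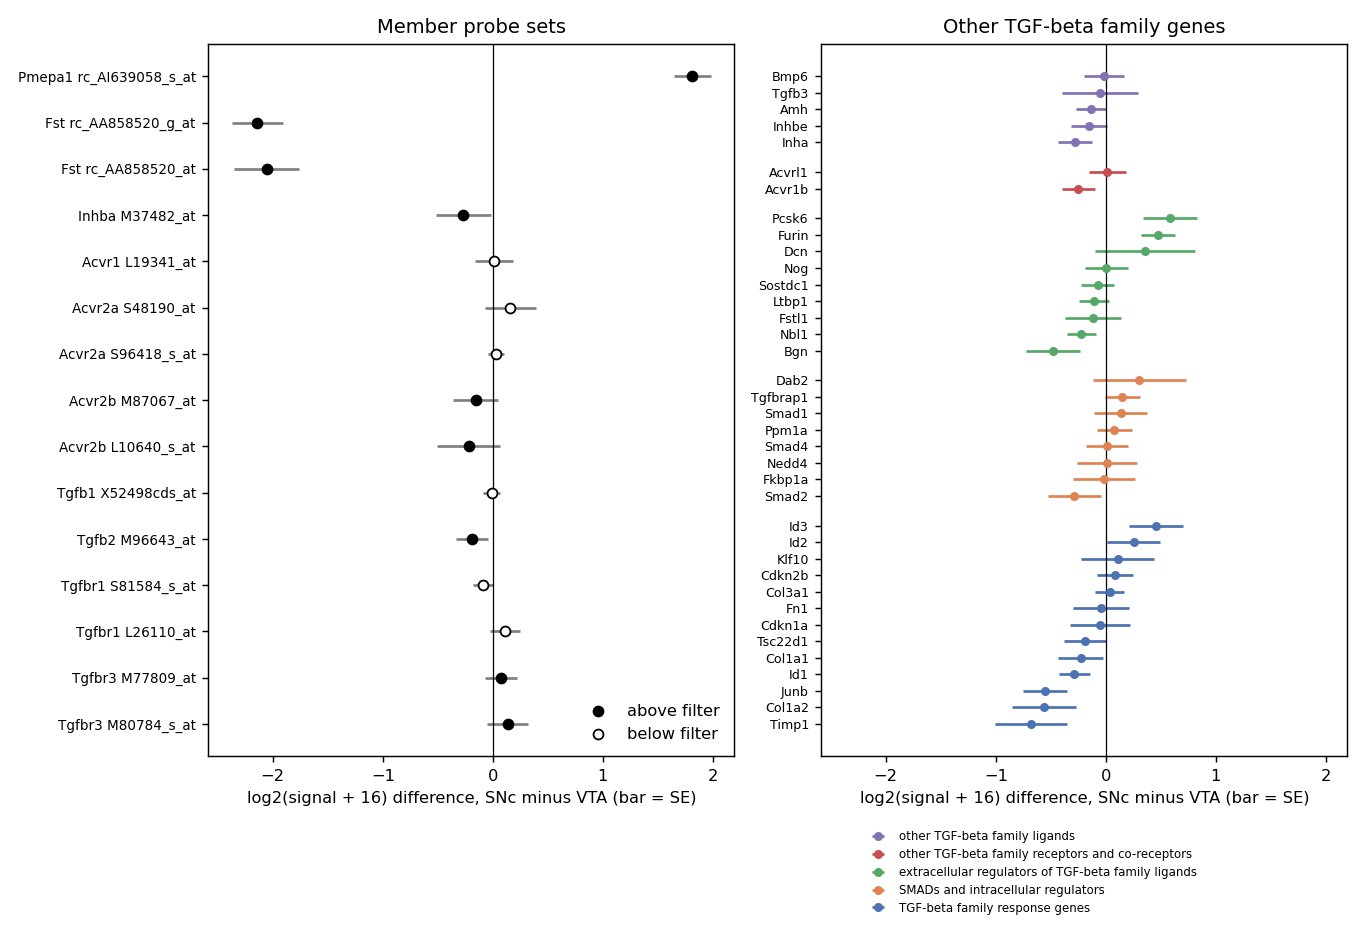
Log2(signal + 16) difference, SNc minus VTA, with its SE, for the member probe sets on the left (filled, above the filter level; open, below it) and for 37 other genes of the TGF-beta family in 5 lists on the right. Pmepa1 at 1.81 and Fst at -2.14 and -2.05 lie apart from the rest, which run from -0.68 to 0.58.

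Within regions, the arrays were not alike across these genes. VTA 5 gave the highest VTA signal for 8 of the 15 probe sets and VTA 8 the lowest for 7 of them, among them both Acvr2b probe sets and Inhba. The 7 of VTA 8 also held both Acvr2a probe sets and that of Tgfb1, which were below the filter level. Counts over the 15 include all 6 such probe sets and take those of a gene separately. The shares over tested probe sets include none below the filter level, so the counts and shares are not directly comparable. Over all 5244 tested probe sets, VTA 5 was the highest VTA array in 18.1% and the lowest in 22.0%, and VTA 8 was the lowest in 20.8%. Each array was also correlated with the other 14, and the median r was lowest on VTA 5, at 0.91, and VTA 8, at 0.92, where the rest had 0.93 to 0.94. VTA 5 and VTA 8 also had the highest GAPDH ratios of 3' to 5' signal, 5.66 and 6.82. Their actin ratios, 9.43 and 9.13, lay within the range of the other arrays. Whether RNA quality bears on the signals of these arrays was not tested. In SNc, array 7 was the highest for 5 of the 15 probe sets, and 13.8% of all. For Pmepa1, VTA 5 and VTA 8 gave 584.9 and 739.9, within the range of the other VTA arrays, while SNc 7 was the lowest SNc array at 1993. The log2 difference of Pmepa1 was 1.81 without VTA 8 and 1.87 without SNc 7.

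**Figure D3:**
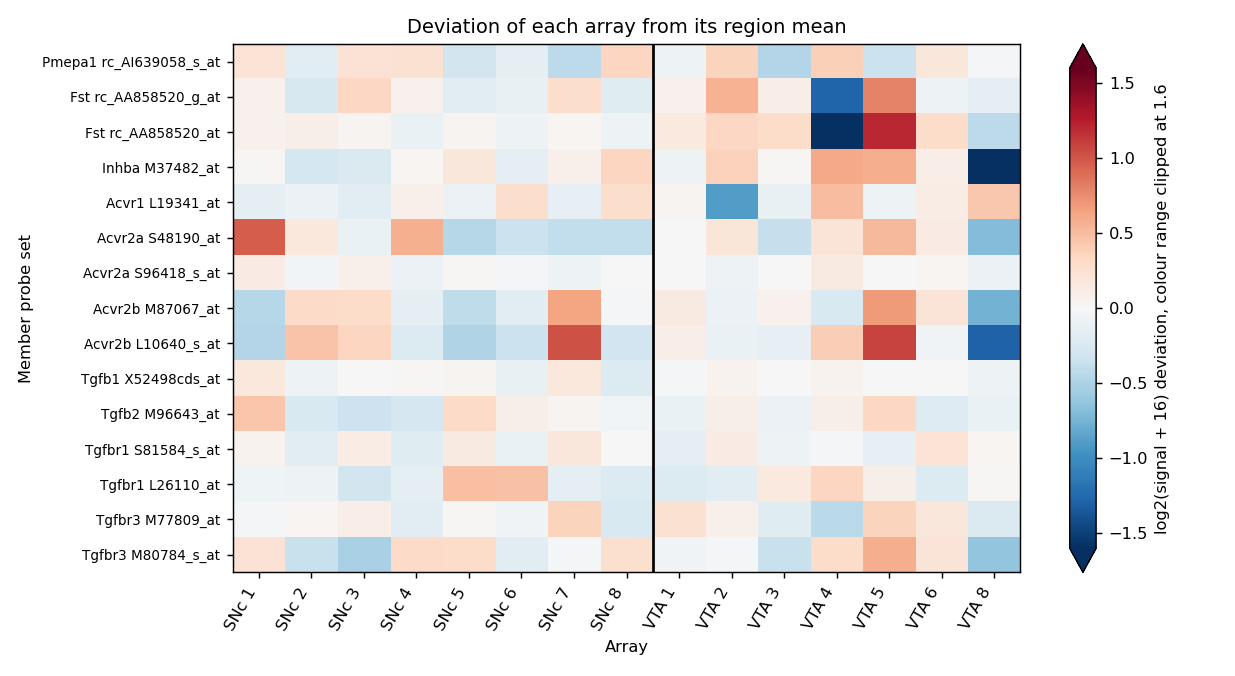
Deviation of each array from the mean of its region, on the log2(signal + 16) scale, for the 15 probe sets (rows) and 15 arrays (columns), with colours clipped at the ends of the scale. VTA 4 is low for both Fst probe sets, VTA 8 is low for Inhba and Acvr2b, and VTA 5 is high for Fst and Acvr2b.

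The relation of Pmepa1 and Fst to the ligands and receptors was then followed across the arrays of each region, which the contrast between regions does not use. With the partners above the filter level, Inhba, Acvr2b, Tgfb2 and Tgfbr3, there were 9 pairs and 18 relations over both regions. None passed after adjustment over the 18, with a smallest adjusted p of 0.4 for Pearson's r and 0.605 for Spearman's rho (exact permutation, two-sided). Before adjustment, 2 were under 0.05 by r and 0 by rho. The relations of Fst in SNc rest on Fst signals that were all under the filter level. Arrays of a region share the captured area and the scaling, and their independence is not given by the labels.

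Both of the strongest relations involved Tgfbr3. Across the VTA arrays, Fst and Tgfbr3 had r = 0.79 (n = 7, exact permutation p = 0.0264, adjusted p = 0.4) and rho = 0.71 (exact permutation p = 0.0881, adjusted p = 0.605). Without VTA 4 and VTA 5, the arrays farthest from the median of Fst, r was 0.25. It was 0.56 without VTA 4 alone and 0.70 without VTA 5 alone. Leaving out the extremes narrows the range of Fst, which can by itself lower r. These values therefore do not show which arrays the relation rests on. With the second Fst probe set and the same Tgfbr3 probe set r was 0.84, and with the other Tgfbr3 probe set and the brighter Fst probe set it was 0.07. Across the SNc arrays, Pmepa1 and Tgfbr3 had r = -0.70 (n = 8, exact permutation p = 0.0445, adjusted p = 0.4) and rho = -0.71 (exact permutation p = 0.0576, adjusted p = 0.605). It was -0.44 without SNc 5 and SNc 7, and 0.17 with the other Tgfbr3 probe set. The Pmepa1 values of SNc fell into 4 higher and 4 lower arrays, and no correlation was computed within a set of 4. Both relations fail the correction, and neither is repeated by the second Tgfbr3 probe set.

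Pmepa1 and Fst were not clearly related within either region. Across VTA arrays r was -0.48 (n = 7, exact permutation p = 0.291, adjusted p = 0.873) and rho -0.54 (exact permutation p = 0.236, adjusted p = 0.605). VTA 4, with the lowest Fst, had the highest Pmepa1, at 975.4, and r was -0.26 without VTA 3 and VTA 4. Leaving out single VTA arrays moved it between -0.80 and -0.10. Across SNc arrays r was 0.08 (n = 8, exact permutation p = 0.824, adjusted p = 0.919). Fst lay so low in SNc that its order over those arrays carries little information. Inhba, the gene of the ligand that follistatin binds, had r = 0.04 with Fst over VTA arrays (n = 7, exact permutation p = 0.923, adjusted p = 0.923). With Acvr2b, Fst had r = 0.53 in VTA (n = 7, exact permutation p = 0.21, adjusted p = 0.873) and 0.25 without VTA 4 and VTA 5.

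**Figure D4:**
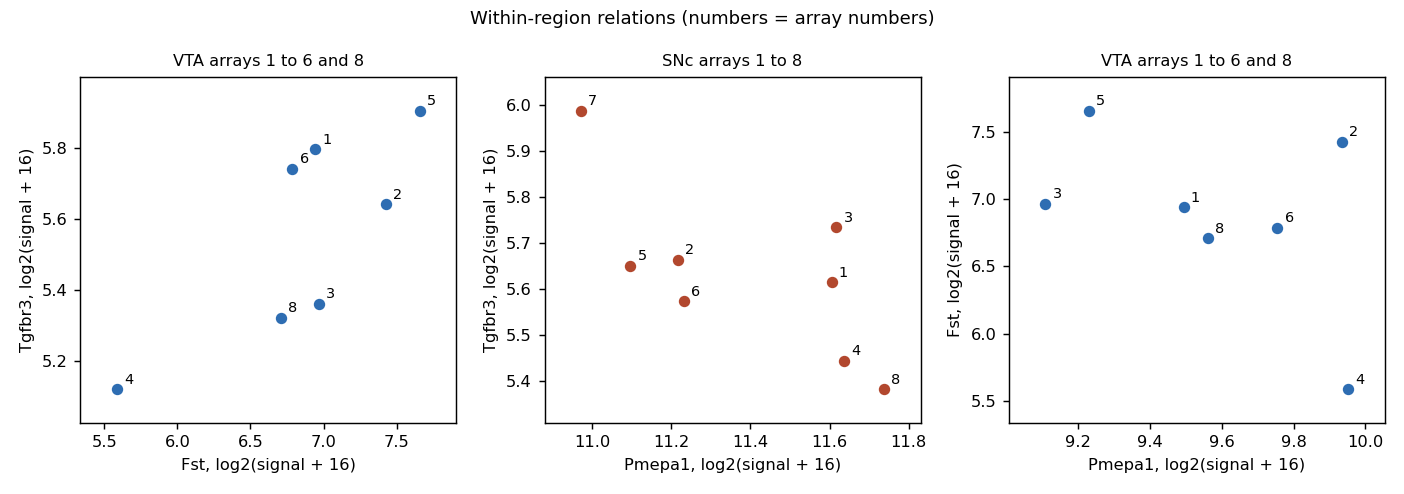
Signals on the log2(signal + 16) scale, a point for each array with its number, for Fst and Tgfbr3 in VTA (r = 0.79), Pmepa1 and Tgfbr3 in SNc (r = -0.70) and Pmepa1 and Fst in VTA (r = -0.48). VTA 4 stands at the low end of Fst in both VTA panels.

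No other gene of the TGF-beta family that could be tested passed the threshold between the regions. Of 119 further symbols in 5 lists, 61 were on the array and 37 were tested, each by its brightest probe set. In limma, 0 of 37 passed the threshold in either direction, where 1.98% of all probe sets passed. An unadjusted p under 0.05 was found for 3 of 37, and for 15.4% of all probe sets. Pmepa1 and Fst, which did pass, had been set aside from these lists beforehand. A share of 1.98% also leaves few calls to expect among 37, so the 0 is not read as a result about the family. All 51 tested probe sets of these genes gave 0 calls as well, with 4 under 0.05 unadjusted. The median log2 difference of the 37 was -0.04, as it was over all 3221 genes tested (-0.04), and 16 were positive and 21 negative. That split turned to 22 and 15 after median centring and to 21 and 16 after quantile normalization.

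No other ligand gene passed. Of 5 tested, Inha, the inhibin alpha subunit, which competes with activin, came nearest, at 223.0 in SNc and 276.1 in VTA (log2 difference -0.28, 95% interval -0.60 to 0.04, limma adjusted p = 0.392), while its second probe set gave 0.05. Inhbe, another beta subunit, and Amh, anti-Müllerian hormone, had adjusted p of 0.693 and 0.678. Of 14 further receptor and co-receptor symbols, only 5 had a probe set on the array. Of those 5, only Acvr1b and Acvrl1 were bright enough to be tested. Acvr1b, the type I receptor for activin, gave 75.65 in SNc and 93.6 in VTA (-0.25, interval -0.57 to 0.06, adjusted p = 0.445). Acvrl1, a type I receptor of vessels, differed by 0.01 (interval -0.34 to 0.37, adjusted p = 0.978).

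Among 9 extracellular regulators, the enzymes that cleave the precursors of these ligands had the smallest p. Furin, a proprotein convertase, gave 149.1 in SNc and 105.2 in VTA (0.48, interval 0.15 to 0.80, adjusted p = 0.126), but its other probe set gave -0.03. Pcsk6, a related convertase, gave 61.23 and 38.37 (0.58, interval 0.07 to 1.10, adjusted p = 0.249), and its dim second probe set gave -0.14. Bgn, the matrix proteoglycan biglycan, gave -0.48 (interval -0.995 to 0.039, adjusted p = 0.36), and -0.17 by its dim second probe set. None of these passed.

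Of 8 SMADs and intracellular regulators, Smad2, which carries the signal of TGF-beta and activin, gave -0.29 (interval -0.79 to 0.22, limma adjusted p = 0.608). Its 2 dimmer probe sets gave -0.55 (SE 0.18) and -0.11 (SE 0.12), so all 3 were negative, and none passed. The difference of -0.55 was larger against its SE than that of the brightest probe set, whose SE was 0.24. Dab2, an adaptor of endocytosis that also binds SMADs, gave 0.31 (interval -0.58 to 1.19, adjusted p = 0.778), and Tgfbrap1, a protein bound to TGF-beta receptors, 0.15 (interval -0.19 to 0.48, adjusted p = 0.704). The shared partner Smad4 differed by 0.01, and Nedd4, a ubiquitin ligase of the family that binds Pmepa1, by 0.01. The inhibitory Smad7 was not bright enough to be tested.

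Genes known to respond to TGF-beta family ligands did not pass either, 0 of 13. Junb, an immediate early gene that also responds to TGF-beta, was at 27.15 in SNc and 46.18 in VTA (-0.56, interval -0.98 to -0.14, adjusted p = 0.174), and its dim second probe set gave 0.13. Timp1, an inhibitor of metalloproteases, was at 52.87 and 98.7 (-0.68, interval -1.36 to 0.004, adjusted p = 0.327), and its dim second probe set gave -0.03. Id1, a target of bone morphogenetic proteins, gave -0.29 by its brighter probe set (adjusted p = 0.33) and 0.27 by its other one. An adjusted p over the threshold does not show that these genes were equal between the regions, and the intervals give the sizes that the data allow.

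The genes whose pattern was most like that of Pmepa1 over all 15 arrays were Prkcd (r = 0.94), a protein kinase C isoform, Ckb (0.91), brain creatine kinase, Asb1 (0.89), Slc25a11 (0.89), a mitochondrial carrier, and Gucy1b1 (0.88), a subunit of soluble guanylate cyclase. For Fst they were Tacr3 (0.84), a tachykinin receptor, Olfm1 (0.83), Slc25a26 (0.83), Anln (0.82) and Gpx3 (0.82). These correlations over 3221 genes carry mainly the difference between the regions. With each region's mean taken away, other genes came first. For Pmepa1 these were Kif3c (r = 0.84), Drd2 (0.82), the dopamine autoreceptor, Gng7 (0.79), Maz (0.76) and Hpcal1 (0.76), whose own log2 differences between regions ran from -0.18 to 0.01. For Fst they were Nfkb1 (0.77), Frmd5 (0.76), Gamt (0.75), Lpar1 (0.75) and Rictor (0.74). The log2 levels of Fst had an SD of 0.225 in SNc, where they were low, and 0.662 in VTA, so its correlations weigh mainly the VTA arrays. All these values are the upper end of 3221 correlations over 15 arrays and are given as a description.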

How the data were processed

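The authors deposited 1 linear intensity per probe set and array. With 2% trimmed at either end, all 15 arrays had a mean of 150.2, which shows that the deposited intensities were already on a common scale. The sources used here do not name the software or the background correction, and no detection calls were used. Of 8799 probe sets, 59 controls were left out. The platform annotation gave 7006 a single symbol, 308 several and 1426 none. The rat gene table of GRCr8 held the gene identifiers of 6985 and changed 0 symbols.

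Values were turned into log2(intensity + 16), the lowest 40% by mean were left out, and 5244 probe sets were fitted with limma 3.58.1 in R 4.3.3 (two-sided, Benjamini-Hochberg adjustment, threshold 0.05). The fit was tested on simulated data. Correlations were permuted exactly in Python (numpy 2.4.6). Cell type marker sums, median signal and control ratios were compared by exact permutation over all splits of 8 and 7 arrays.

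The genes and lists were chosen with earlier results of these data known. Named were every member by each probe set, the 3 genes with the smallest p in each list and any that passed, and, for Pmepa1 and Fst, the 5 genes with the highest r over all arrays and the 5 with the highest r of deviations from region means. Smad4, Nedd4 and Smad7 were named outside this rule. Alternatives were other normalizations, offsets of 1 and 64, other filters, the replicate number as a block, another variance model, a threshold of 0.10, the mean of a gene's probe sets, and leaving out each array. The number of arrays limits the precision, and p-values measure only the spread between these arrays.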

Additional observations from a re-analysis of the deposited data

Results flagged for a closer look

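The Inhba signal of VTA 8, 20.51, stood far from the other 6 VTA arrays, which lay between 87.52 and 151.8. The gap to the nearest array was 0.683 of the whole range on the log2(signal + 16) scale. It was the single such case among 30 groups checked, 15 probe sets in 2 regions, and chance flags about 1 in 20. VTA 8 also had the lowest VTA signal of both Acvr2b probe sets.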

How the results depend on the processing

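The difference of Pmepa1 stayed between 1.73 and 1.91 under all alternatives run, and on leaving out single arrays that of Fst stayed between -2.35 and -2.01 by its brighter probe set and between -2.37 and -1.85 by the other. Fst moved to -3.16 with an offset of 1 and -1.17 with an offset of 64, by construction of the offset at low signals. With the replicate number as a block, the differences were 1.87 and -2.18. Deviations of same-numbered arrays of the regions correlated with r from 0.044 to 0.254, over 0.1 in 5 of 7 pairs. Of the 7, 3 correlated best with their own number. The labels do not say what the number marks, and the main fit did not use it as a pair. The block gave 99 calls over all probe sets, and 153 as a random term, and called 0 of the 37 other TGF-beta family genes, as without it. The total of 104 was 60 with an offset of 1 and 208 at a threshold of 0.10. Leaving out single arrays gave 56 to 115, with 69, 56 and 68 without SNc 2, 3 and 4, and 66, 59, 68, 62 and 64 without VTA 1, 2, 3, 5 and 6. The share of calls higher in SNc was 42.3%, and 64.4% after median centring. The filter of 60% left out Fst. The other TGF-beta family genes gave 0 calls, and the within-region relations 0, under every alternative run. Acvrl1 changed sign with the block (-0.024) and ran from -0.084 to 0.07 on leaving out arrays. Pmepa1 against Fst in SNc ran from -0.14 to 0.54. The causes were not tested. Summed marker differences turned to 0.0896 and 0.244 for microglia and 0.00609 and 0.0697 for glutamate neurons after quantile normalization and median centring, and to 0.656 for dopamine neurons after centring. GABA markers passed at 3.18 and 3.44.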
